A study of Mus musculus with 25 samples.

Results

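The 38 genes described here encode the interstitial matrix of the liver. They were taken from the deposited count table of 56980 genes by a list of symbols. The list was chosen with earlier results of these data known. The genes comprise 6 fibrillar collagens, 7 other interstitial collagens, 4 small leucine-rich proteoglycans, 9 elastic fibre and microfibril genes, 3 crosslinking enzymes and 9 adhesive and matricellular proteins. All 38 symbols were found in the table. Mfap5 did not pass the filter on low counts among the first 18 libraries, so 37 were tested there, and all 38 were tested in the other 7 libraries.

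Interstitial matrix is the fibrous scaffold of connective tissue. Its collagens are secreted as triple-helical procollagens, trimmed, assembled into fibrils and joined covalently by lysyl oxidases, while proteoglycans and glycoproteins set fibril width and tie cells to the fibrils. In the injured liver, activated hepatic stellate cells and portal fibroblasts are the main makers of this matrix, and transforming growth factor beta is the best known inducer of its genes.

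Poly-A RNA from whole-liver homogenates of male C57BL/6J mice was sequenced in 25 libraries, which fall into 8 groups. Mice were 8 weeks old at the start and 20 weeks old at the end. The FAT-MASH regimen, a model of metabolic dysfunction-associated steatohepatitis, ran for 12 weeks and combined a chow high in fat, sucrose and cholesterol, drinking water with fructose and glucose, and a weekly injection of the liver toxin carbon tetrachloride. Control mice ate normal chow with plain water. Mannose, a hexose sugar, was dissolved in the drinking water at 5% or 20%.

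The first batch has 18 libraries, 3 in each of 6 groups. These were normal diet, FAT-MASH without mannose, and 4 groups with mannose on top of FAT-MASH. Prevention groups drank 5% or 20% mannose through the whole 12 weeks, and therapy groups drank the same doses from the midpoint on, for 6 weeks. All 7 libraries of the second batch are from mice that ate normal chow: 2 drank plain water, 2 drank 5% mannose and 3 drank 20%. The labels give the batch as a date only, and no library on the regimen is in the second batch. Normal diet replicates 1 to 3 belong to the first batch and replicates 4 and 5 to the second. The toxin was part of the regimen in all 5 FAT-MASH groups, so diet, sugar water and toxin cannot be told apart.

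Levels are given in CPM, counts relative to the library total after TMM scaling within a batch. Changes are log2 fold changes from edgeR's quasi-likelihood test, with a standard error (SE) derived from it. This SE is the size of the log2 fold change divided by the square root of the test's F statistic. A gene is said to rise or fall only where the p-value adjusted over all genes tested was under 0.05. Library totals ran from 31298299 to 56010646 counts in the first batch and from 35971380 to 49752882 in the second. In a homogenate, more cells of a type and more RNA per cell cannot be told apart. The labels call the libraries biological replicates but do not tie them to cages.

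Promoters of 23 of the 38 genes could be matched by symbol in RefSeq's tables (build GRCm38.p6), and 4 are shown because their genes stand for the patterns described below. Each is the 250 bases before the gene's start, 5′ to 3′ on the gene's strand. Col1a2 and Col3a1 rose with the regimen, Col6a3 rose with the regimen and was higher still with 20% therapy, and Col5a3 fell with 20% mannose given on top of the regimen. Capitals mark matches on either strand to the CCAAT box (the letters CCAAT), the GC box (the letters GGGCGG), the SMAD element (the letters CAGACA), the TATA box (the letters TATAAA) and the AP-1 site (TGA and TCA with any 1 base between them).
Col1a2, chr6:4505368-4505617 (plus strand, GRCm38.p6): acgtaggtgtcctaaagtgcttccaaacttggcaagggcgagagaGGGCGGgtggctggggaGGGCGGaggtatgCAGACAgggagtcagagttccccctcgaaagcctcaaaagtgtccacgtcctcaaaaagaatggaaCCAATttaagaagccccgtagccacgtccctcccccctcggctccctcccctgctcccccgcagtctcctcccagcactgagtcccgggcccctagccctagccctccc
Col3a1, chr1:45311288-45311537 (plus strand, GRCm38.p6): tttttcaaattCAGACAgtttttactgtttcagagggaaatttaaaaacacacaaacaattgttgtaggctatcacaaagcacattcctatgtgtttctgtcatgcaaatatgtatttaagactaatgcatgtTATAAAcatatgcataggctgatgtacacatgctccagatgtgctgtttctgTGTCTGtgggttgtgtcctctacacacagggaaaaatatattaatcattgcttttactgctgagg
Col6a3, chr1:90843972-90844221 (minus strand, GRCm38.p6): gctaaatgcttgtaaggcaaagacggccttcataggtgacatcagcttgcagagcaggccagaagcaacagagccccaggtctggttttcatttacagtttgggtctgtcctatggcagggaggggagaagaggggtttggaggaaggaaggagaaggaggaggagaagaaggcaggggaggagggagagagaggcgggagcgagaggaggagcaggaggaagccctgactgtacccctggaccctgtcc
Col5a3, chr9:20815068-20815317 (minus strand, GRCm38.p6): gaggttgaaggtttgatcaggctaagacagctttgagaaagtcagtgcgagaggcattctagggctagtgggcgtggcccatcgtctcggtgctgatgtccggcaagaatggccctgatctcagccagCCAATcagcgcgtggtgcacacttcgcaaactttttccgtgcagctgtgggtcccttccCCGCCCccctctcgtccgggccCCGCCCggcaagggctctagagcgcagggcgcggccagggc
The Col1a2 window holds a CCAAT box 109 bases before the start, 2 GC boxes and 1 SMAD element, with a GC content of 62%. Col3a1 has a TATA box 117 bases before the start and 2 SMAD elements in a window of 35.2% GC, and none of the 5 motifs is in the Col6a3 window. Col5a3 has a CCAAT box and 2 GC boxes, and no SMAD element in these letters. Over the 30 promoters of the 23 genes, 60% held a GC box and 33.3% a SMAD element, against 32.7% and 17.1% of the 32851 promoters in the table. The CCAAT box was in 23.3% of them against 33.8% of all, the AP-1 site in 3.33% against 6.75%, and the TATA box in 16.7% against 12.4%. No 2 matches printed in capitals overlap. These matches describe letters, not bound sites.

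Levels per kilobase of exon differed widely among the genes. Fn1, which encodes fibronectin, a plasma protein that hepatocytes also secrete, was the most abundant, at 101 CPM per kb on normal diet and 105 in FAT-MASH, where it made up 35% of the summed length-scaled level of all 38. Dcn, the proteoglycan decorin, followed at 42.1 CPM per kb in FAT-MASH, then Sparc at 27.5, Bgn at 20.2 and Col5a3 at 16.2. Col3a1, the chain of collagen III, stood at 11.1 and Col1a1 at 5.76 CPM per kb. Vcan and Mfap5 were the least abundant, at 0.03 and 0.08 CPM per kb. Fn1 did not pass the test in any comparison, and its 25 libraries ran from 849 to 1320 CPM on the scale not corrected for length.

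In the genome, 3 pairs of these genes are close neighbours (coordinates of GRCm39, from the count table). Col3a1 (chr1:45350698-45388866) and Col5a2 (chr1:45413481-45542442) lie 24.6 kb apart on opposite strands. Lum and Dcn lie 47 kb apart on chromosome 10 and Col6a1 and Col6a2 85.2 kb apart on the same chromosome, each pair on 1 strand. Mfap4 and Efemp2 share exonic bases with Mapk7 and Mus81 on the other strand, at mean counts of 177 against 214 and 262 against 427. Because counting did not use strand, the values of Mfap4 and Efemp2 are uncertain.

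**Figure D1:**
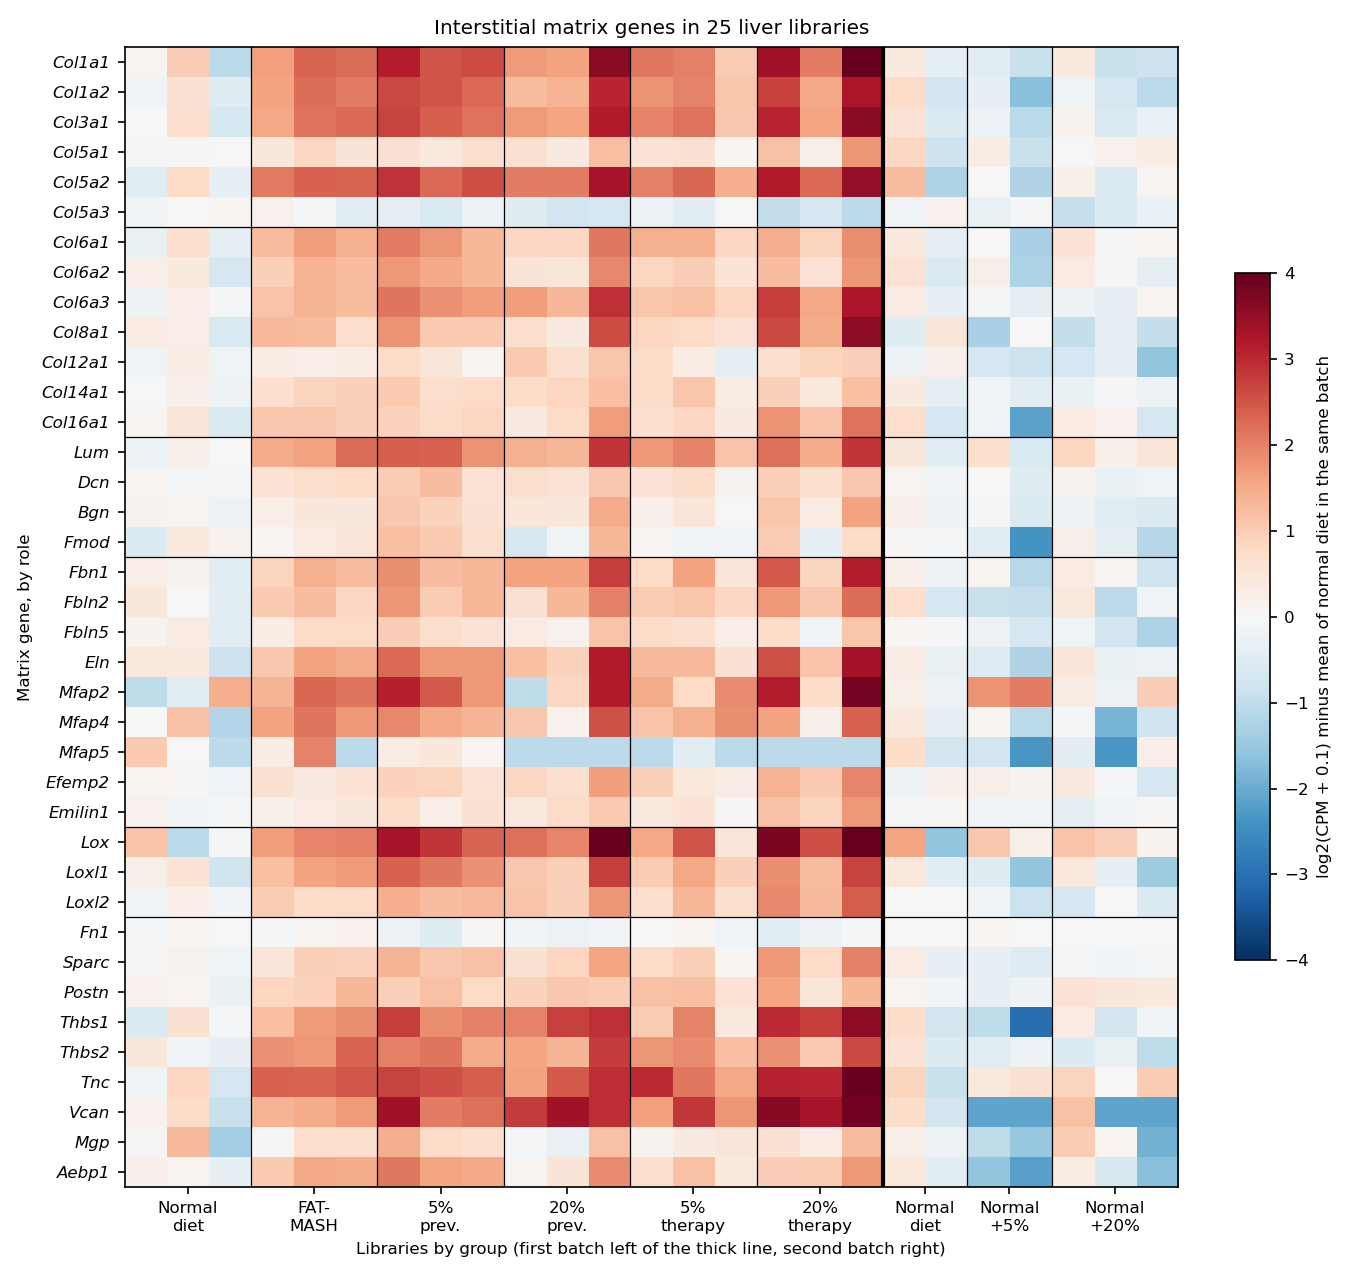
Colour gives log2(CPM + 0.1) of each of the 38 genes (rows, by role) in each of the 25 libraries (columns, by group) minus the mean of the normal-diet libraries without mannose of the same batch, limited to values between -4 and 4. Most genes are red in the FAT-MASH groups, Fn1 and Col5a3 are not, and replicate 3 of 20% prevention and of 20% therapy are the deepest red of their groups for most genes.

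The regimen alone was compared with normal diet to ask which matrix genes the disease model changed. Interstitial matrix RNA was broadly higher in FAT-MASH livers: 18 of the 37 genes rose and none fell, against 13.7% of all genes tested that changed (7.81% rose and 5.92% fell). The median log2 fold change was 1.16 over the matrix genes and 0.03 over all genes. In 30 of the 37, all 3 FAT-MASH libraries exceeded all 3 normal-diet libraries, which held for 17.7% of all genes. The rises were in the fibrillar collagens (4 of 6), the other collagens (5 of 7), the proteoglycans (2 of 4), the crosslinking enzymes (2 of 3) and the adhesive and matricellular proteins (5 of 9). None of the 8 elastic fibre genes tested passed the test by edgeR, with a median of 1.10 on the log2 scale.

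Among the fibrillar collagens, Col1a1 and Col1a2 encode the 2 chains of collagen I, the main scar collagen. Col1a1 was at 9.4, 17.3 and 4.13 CPM on normal diet and at 27.4, 44.4 and 41.6 in FAT-MASH, a rise of 1.87 (SE 0.55, adjusted p = 0.0295). Col1a2 went from 12.4, 20.1 and 9.37 to 40.5, 62.5 and 55.4 CPM, a rise of 1.91 (SE 0.44, adjusted p = 0.00642). For both chains the groups did not overlap. Col3a1, collagen III of fine reticular fibres, was at 27, 42.7 and 16.4 CPM on normal diet and 77.7, 121 and 128 in FAT-MASH and rose by 1.92 (SE 0.47, adjusted p = 0.00894). The 3 chains of collagen V, which nucleates collagen I fibrils, moved unlike one another. Col5a2 rose by 2.18 (SE 0.39, adjusted p = 0.000893), from 1.86, 4.44 and 2.03 to 11.1, 13.7 and 13.2 CPM. Col5a1 was 0.60 (SE 0.27, adjusted p = 0.167) higher without passing the test, although its libraries did not overlap. Col5a3 stood at 108, 118 and 127 CPM on normal diet and 131, 115 and 84.9 in FAT-MASH, a difference of -0.09 (SE 0.15, adjusted p = 0.758) with overlapping groups.

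Collagen VI forms beaded filaments around cells from 3 different chains, and all 3 rose. Col6a1 rose by 1.38 (adjusted p = 0.0109), Col6a2 by 1.14 (adjusted p = 0.0361) and Col6a3 by 1.25 (adjusted p = 0.0253). Col6a3 was at 8.33, 11.6 and 9.06 CPM on normal diet and 21.1, 24.8 and 23.4 in FAT-MASH, so the lowest FAT-MASH library was above the highest control. The fibril-associated Col14a1 rose by 0.83 (adjusted p = 0.00784) and Col16a1 by 0.99 (adjusted p = 0.0415). Col8a1, a short-chain collagen of vessel walls, was 1.16 (adjusted p = 0.221) higher and Col12a1, another fibril-associated chain, 0.28 (adjusted p = 0.53), and neither passed.

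The proteoglycans lumican and decorin bind collagen fibrils and limit their width. Lum was at 8.44, 11.6 and 9.79 CPM on normal diet and at 27.8, 30.2 and 46.4 in FAT-MASH, and rose by 1.81 (SE 0.38, adjusted p = 0.00307). Dcn, far more abundant, went from 164, 148 and 146 to 225, 246 and 267 CPM and rose by 0.69 (SE 0.17, adjusted p = 0.00979). Its rise was small beside that of Lum but its libraries were close together in both groups. Bgn (biglycan) and Fmod (fibromodulin) were 0.37 (adjusted p = 0.406) and 0.26 (adjusted p = 0.76) higher and did not pass the test.

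Of the lysyl oxidases, which crosslink collagen and elastin, Loxl1 rose by 1.42 (adjusted p = 0.0385) and Loxl2 by 0.86 (adjusted p = 0.0495). Lox itself was 1.76 (SE 0.67, adjusted p = 0.0931) higher, at 1.1, 0.157 and 0.42 CPM on normal diet and 1.64, 2.01 and 2.09 in FAT-MASH. Loxl2 was near the threshold, and its call was lost in 10 of 14 other settings. Eln, the elastin precursor, was at 7.18, 7.08 and 2.97 and 11.3, 16.6 and 15.1 CPM, a difference of 1.31 (SE 0.53, adjusted p = 0.115). Fbn1 (fibrillin, the microfibril core) and Fbln2 (a basement membrane and elastic fibre fibulin) were 1.17 (adjusted p = 0.0915) and 1.02 (adjusted p = 0.0526) higher. Fbln5, Efemp2 and Emilin1, which help to assemble elastic fibres, were 0.60, 0.51 and 0.32 higher on the log2 scale, and the microfibril proteins Mfap2 and Mfap4 2.13 and 1.57. Mfap2 and Mfap5 were near the limit of detection, with Mfap5 at 0.329, 0.105 and 0 CPM on normal diet and 0.153, 0.719 and 0 in FAT-MASH.

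Tenascin C (Tnc), a matricellular protein of healing wounds, had the highest fold change of the 37. It was at 0.548, 1.2 and 0.35 CPM on normal diet and 3.59, 3.54 and 3.92 in FAT-MASH, and rose by 2.36 (SE 0.45, adjusted p = 0.00136). The 3 FAT-MASH libraries were close together and all above the controls. Thbs2 and Thbs1, thrombospondins that bind matrix and growth factors, rose by 1.98 (adjusted p = 0.00252) and 1.58 (adjusted p = 0.0128). Thbs2 went from 2.85, 1.88 and 1.61 to 7.56, 7.01 and 10.7 CPM. Postn (periostin) rose by 1.06 (adjusted p = 0.0038) and Aebp1, a collagen-binding secreted protein, by 1.36 (adjusted p = 0.0198). Sparc, a collagen chaperone of the matrix, was 0.79 (adjusted p = 0.06) higher and Vcan (versican, a large proteoglycan) 1.92 (adjusted p = 0.059). Mgp, an inhibitor of calcification, was 0.12 (adjusted p = 0.913) higher.

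Of the 18 rises, 8 passed in each of 14 other settings that include leaving out each library: Col1a2, Col5a2, Col14a1, Lum, Dcn, Postn, Thbs2 and Tnc. Without normal-diet replicate 3, 8 genes passed in place of 18, and without FAT-MASH replicate 2 or 3, 11 or 10 did. Col1a1 lost its call in 4 of the 14, with adjusted p up to 0.126.

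Other genes of collagen biology moved less evenly than the matrix genes. Of 24 genes for collagen synthesis and processing, 3 rose and 2 fell, with a median of 0.25 on the log2 scale. Adamts2, the procollagen N-proteinase, rose by 1.24 (adjusted p = 0.0266) and Crtap, a part of the prolyl 3-hydroxylase complex, by 0.57 (adjusted p = 0.027). Ppib, the cyclophilin of that complex, fell by 0.68 (adjusted p = 0.000165) and Bmp1, the procollagen C-proteinase, by 0.39 (adjusted p = 0.00655). Of 25 genes of the transforming growth factor beta pathway, 7 rose and none fell. They include the receptors Tgfbr1, which rose by 0.67 (adjusted p = 0.00144), and Tgfbr2, by 0.57 (adjusted p = 0.0121). Ltbp1, which stores the latent growth factor in matrix, rose by 1.26 (adjusted p = 0.0101).

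Markers of the cells that can make or hold matrix were set beside these rises. Of 15 hepatic stellate cell markers, 6 rose and 1 fell, among them Hand2 by 0.84 (adjusted p = 0.0112) and Pdgfra by 0.86 (adjusted p = 0.0225), and Ecm1 fell by 0.51 (adjusted p = 0.0127). Their summed level was 351, 339 and 335 CPM on normal diet and 380, 375 and 402 in FAT-MASH. The 7 contractile genes of myofibroblasts did not follow the collagens: Tpm2 fell by 1.33 (adjusted p = 0.00138) and none rose. Acta2, the smooth muscle actin used to mark myofibroblasts, differed by -0.34 (SE 0.51, adjusted p = 0.73), and their sum was 27.9, 45.1 and 19.7 CPM on normal diet and 15, 22.2 and 22.4 in FAT-MASH.

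Mesothelial markers, of the cells that cover the liver's surface, stood out. Of 7, 5 rose, including Msln by 3.77 (adjusted p = 0.00014), Upk1b by 3.15 (adjusted p = 0.00293), Gpm6a by 2.28 (adjusted p = 0.00217) and Upk3b by 2.27 (adjusted p = 0.00324). Their sum went from 9.7, 13.8 and 7.34 to 40.4, 57.6 and 51.5 CPM, and was 32.8 and 26.9 CPM in the 2 normal-diet libraries of the second batch. Of 8 macrophage markers, 6 rose, among them Trem2 by 3.36 (adjusted p = 0.00302), from a sum of 248, 232 and 240 to 437, 494 and 753 CPM. Of 10 portal and capsule fibroblast markers, 2 rose (Entpd2 by 1.35 (adjusted p = 0.00364) and Slit2 by 3.01 (adjusted p = 0.0136)) and their sum went from 35.9, 35.6 and 29.7 to 48.7, 57.3 and 50.9 CPM. The part of these cell types in the matrix rises was not tested.

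**Figure D2:**
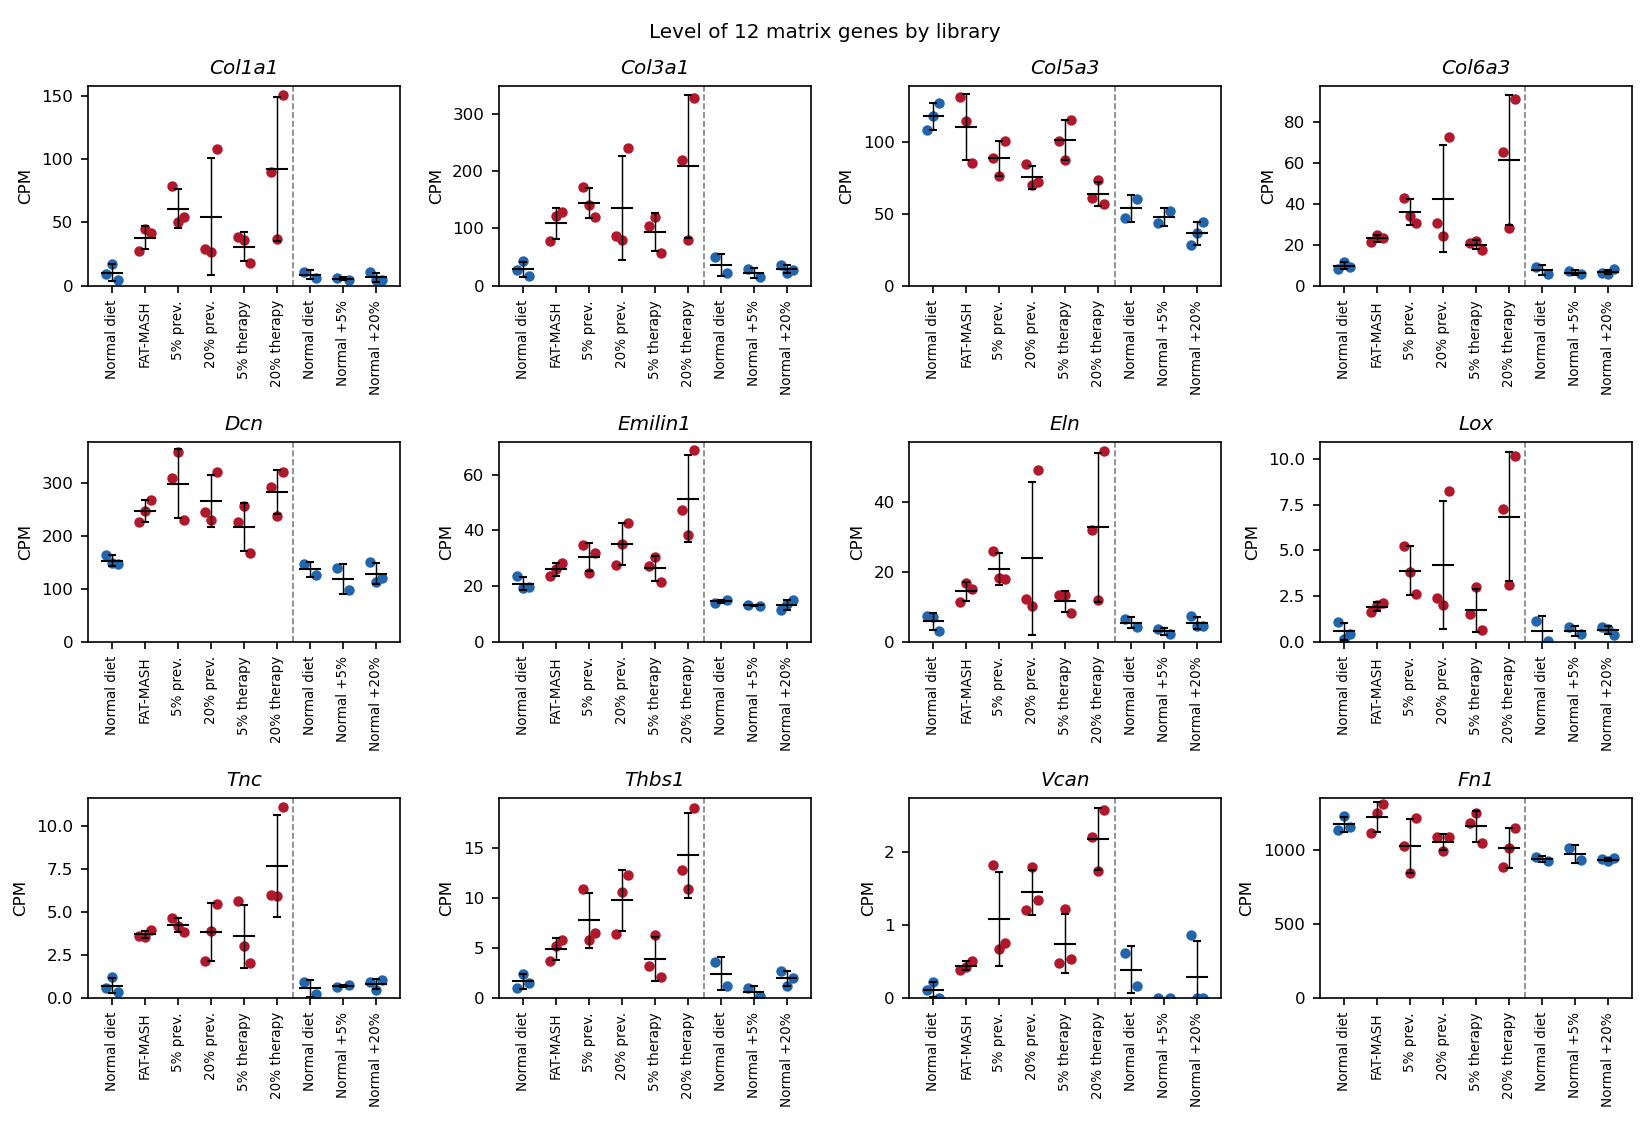
Points give the CPM of 12 matrix genes in each library by group, with the mean as a line and the SD as a bar; red groups received the FAT-MASH regimen, and the dashed line separates the batches. Col1a1, Col3a1 and Tnc are higher in FAT-MASH than on normal diet, Emilin1 and Thbs1 are highest with 20% therapy, Col5a3 is lowest of the first batch there, and Fn1 does not pass the test in any comparison.

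Mannose at 20% in the last 6 weeks was then compared with FAT-MASH alone. The matrix genes that changed were mostly higher with this therapy: 10 of 37 rose and 1 fell, against 10.2% and 11.3% of all genes tested (21.4% in either direction). The median was 0.72 over the matrix genes and 0.00 over all genes. All 3 therapy libraries were above all 3 FAT-MASH libraries in 11 genes, against 18.1% of all genes. The rises included 3 of 8 elastic fibre genes, 2 of 3 crosslinking enzymes, 2 of 7 other collagens and 3 of 9 adhesive proteins. No fibrillar collagen and no small leucine-rich proteoglycan rose.

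The spread between the therapy libraries was wide. Replicate 3 was highest of the group for 34 of the 38 genes and replicate 2 lowest for 33. The highest library was a median of 2.39 times the lowest in this group, against 1.35 times in FAT-MASH. Without replicate 3, 4 genes passed in place of 11 and the median fell to 0.41. Without replicate 2, 19 passed, and without FAT-MASH replicate 2, 7 did.

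Of the elastic fibre genes, Emilin1, Efemp2 and Fbn1 rose. Emilin1, a glycoprotein at the surface of elastic fibres, was at 23.6, 25.9 and 28.1 CPM in FAT-MASH and 47.1, 38.2 and 68.8 with 20% therapy, and rose by 0.99 (SE 0.20, adjusted p = 0.000996). The groups did not overlap. Efemp2, which brings lysyl oxidase to elastin, rose by 1.01 (SE 0.27, adjusted p = 0.00935) and Fbn1 by 1.25 (SE 0.43, adjusted p = 0.0423). The value of Efemp2 is uncertain, because it shares exonic bases with Mus81, as given above. Fbn1 was at 5.73, 8.27 and 7.27 CPM in FAT-MASH and 17, 5.75 and 27.8 with therapy, so that replicate 2 fell within the FAT-MASH range. Eln was 1.19 (SE 0.51, adjusted p = 0.109) higher and did not pass, with 31.8, 11.8 and 54.4 CPM under therapy.

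Lox, which crosslinks elastin and collagens, was at 1.64, 2.01 and 2.09 CPM in FAT-MASH and 7.27, 3.1 and 10.2 with 20% therapy, and rose by 1.85 (SE 0.61, adjusted p = 0.0358). Loxl2 rose by 1.12 (SE 0.27, adjusted p = 0.00564). Loxl1 was 0.55 (adjusted p = 0.407) higher.

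Vcan had the highest fold change of the 37 in this comparison, 2.32 (SE 0.55, adjusted p = 0.00461), from 0.382, 0.42 and 0.507 to 2.21, 1.74 and 2.58 CPM, and remained a low-level gene. Thbs1 was at 3.63, 5.18 and 5.75 CPM in FAT-MASH and 12.7, 10.9 and 19 with therapy, and rose by 1.56 (SE 0.38, adjusted p = 0.00557). All 3 therapy libraries of both genes were above all FAT-MASH libraries. Sparc rose by 0.81 (adjusted p = 0.0398) with overlapping libraries. Tnc was 1.06 (adjusted p = 0.0654) higher, Postn 0.14 (adjusted p = 0.725), Mgp 0.30 (adjusted p = 0.72), Aebp1 -0.06 (adjusted p = 0.929) and Thbs2 -0.01 (adjusted p = 0.992).

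Collagen chains differed in whether they passed. Col6a3 rose by 1.41 (SE 0.35, adjusted p = 0.00633), from 21.1, 24.8 and 23.4 to 65.1, 28 and 91.2 CPM, while its partner chains Col6a1 and Col6a2 differed by -0.01 (SE 0.33) and 0.08 (SE 0.34). Col8a1 rose by 1.77 (SE 0.56, adjusted p = 0.0283), from 1.6, 1.56 and 1.01 to 4.22, 1.82 and 8.19 CPM. Col1a1 was at 90.2, 36.7 and 151 CPM with therapy, 1.29 (SE 0.53, adjusted p = 0.0908) above FAT-MASH. Replicate 2 lay among the FAT-MASH libraries, and the call passed in 5 of 14 other settings, including the one without that replicate. Col3a1 was 0.94 (SE 0.45, adjusted p = 0.157) higher, with therapy libraries at 219, 79.1 and 327 CPM. Of the rest, Col1a2 and Col5a2 were 0.69 (adjusted p = 0.277) and 0.82 (adjusted p = 0.114) higher, and Col5a1, Col12a1 and Col16a1 0.60, 0.55 and 0.73. Col14a1 differed by 0.06, Lum by 0.48 and Dcn by 0.20.

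Col5a3 went the other way. It was at 131, 115 and 84.9 CPM in FAT-MASH and 61, 73.2 and 56.9 with 20% therapy, and fell by 0.79 (SE 0.15, adjusted p = 0.000733). No therapy library reached the lowest FAT-MASH library. The fall passed in all 14 other settings. Against normal diet, at 108, 118 and 127 CPM, the fall was 0.88 (SE 0.15, adjusted p = 0.000127). Emilin1 and Thbs1 also passed in all 14. Of the other rises, Fbn1 lost its call in 8 of the 14, with adjusted p up to 0.31, Lox and Sparc in 7 each and Col8a1 in 5. Each of these 4 was lost without any 1 FAT-MASH library and without therapy replicate 3. Col6a3, Efemp2, Loxl2 and Vcan were each lost in 1.

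Scaling by library totals alone put the median of all genes at 0.30 on the log2 scale in this comparison and called 21 matrix genes. Over all genes, 6520 of 19571 were then called, against 4195 in the main fit. The median over all tested matrix genes was then 1.04.

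**Figure D3:**
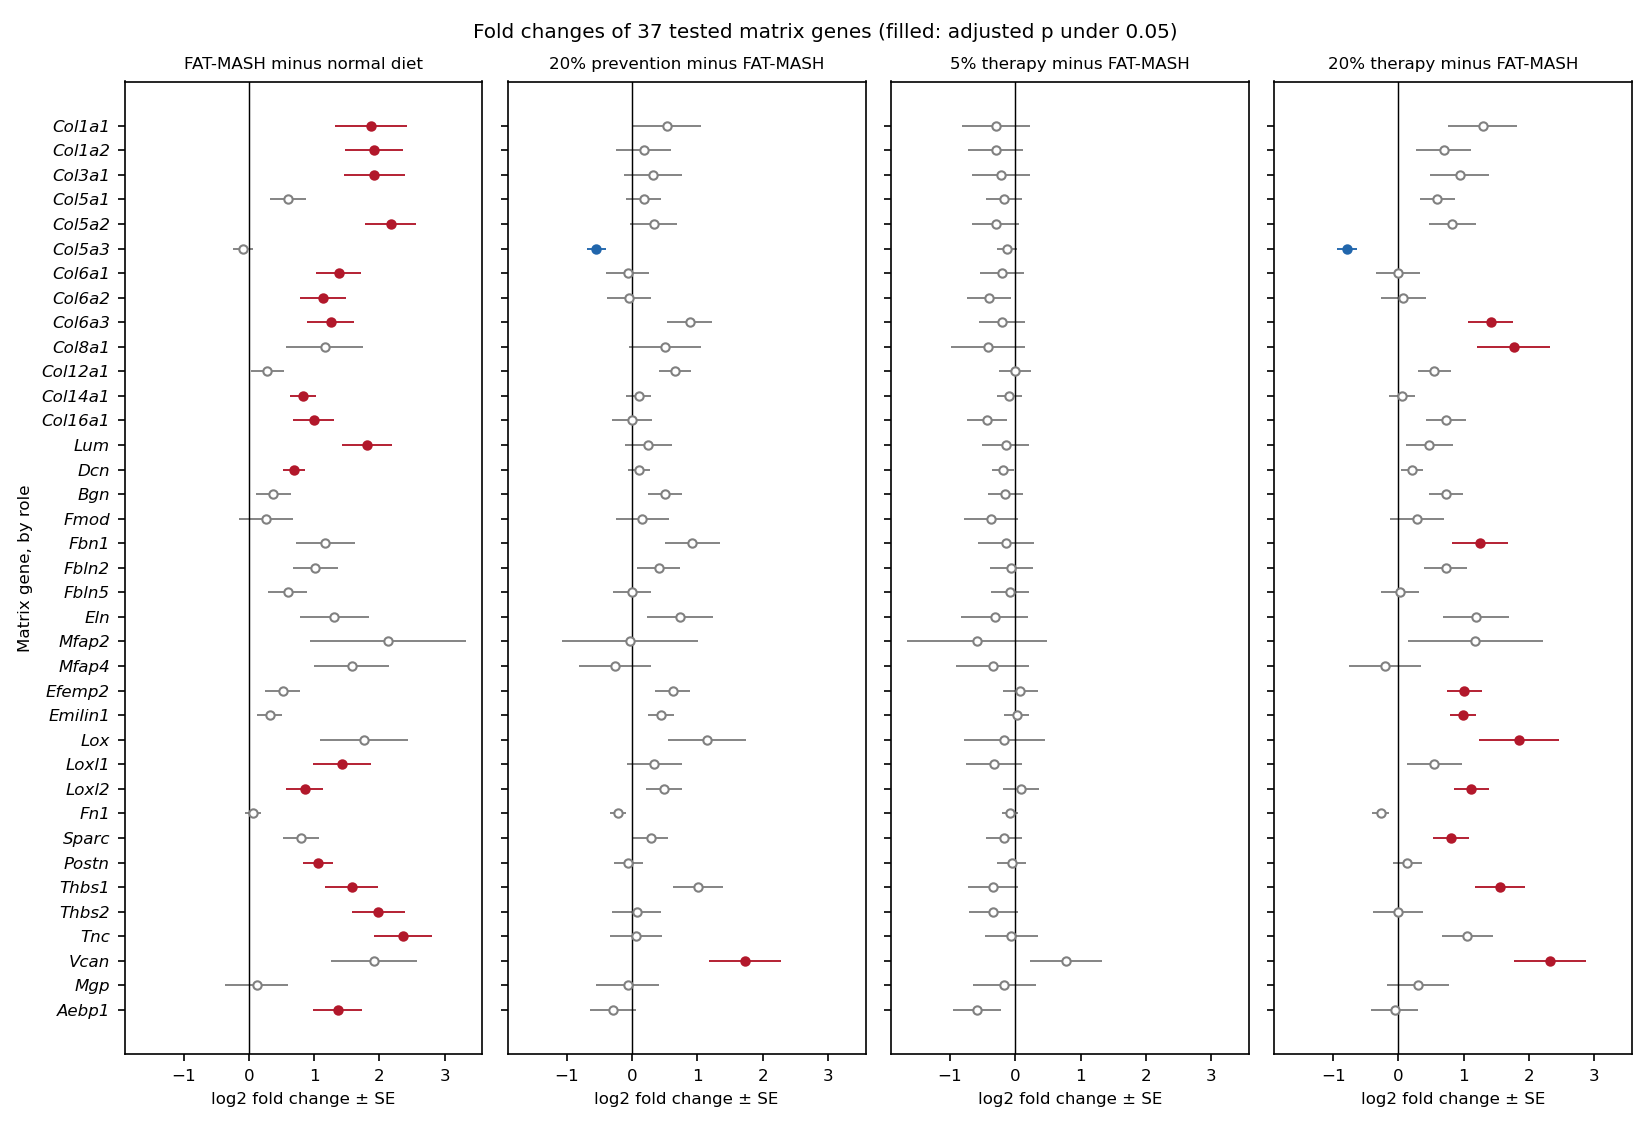
Points give the log2 fold change of each of the 37 tested genes in 4 comparisons, bars the SE, and filled points an adjusted p under 0.05 (red higher, blue lower). With the regimen 18 points are filled, all on the high side, 20% therapy fills 10 on the high side, among them Emilin1, Thbs1, Vcan and Col6a3, and Col5a3 on the low side, and 5% therapy fills none.

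In the collagen processing list, 6 of 24 genes rose with 20% therapy and 1 fell. Serpinh1, the collagen-specific chaperone, rose by 1.06 (adjusted p = 0.000863), Crtap by 0.77 (adjusted p = 0.0016) and the prolyl hydroxylase P3h1 by 0.57 (adjusted p = 0.00124). Bmp1 fell by 0.89 (SE 0.09, adjusted p = 1.29e-06), after its fall of 0.39 with the regimen. In the transforming growth factor beta list, 7 of 25 rose, among them Tgfbi (a secreted target gene) up 1.05 (adjusted p = 0.00017), the integrin Itgav 0.61 (adjusted p = 0.00151) and the feedback regulator Skil 0.59 (adjusted p = 0.00579).

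Markers of bile duct cells (cholangiocytes) ordered the libraries of 20% therapy as most matrix genes did. With the regimen alone against normal diet, none of these 9 markers had passed the test, with a median of 0.76 on the log2 scale. Of 9 cholangiocyte markers, 6 rose with 20% therapy, among them Epcam by 2.79 (adjusted p = 0.000284), Spp1 by 2.38 (adjusted p = 0.000538), Sox9 by 1.05 (adjusted p = 0.000679) and Cldn4 by 3.39 (adjusted p = 0.00241). Their sum, of which Spp1 is the larger part, was 101, 103 and 123 CPM in FAT-MASH and 566, 169 and 768 with therapy. Replicate 2 was thus lowest and replicate 3 highest, as for most matrix genes. This order was not particular to the cholangiocyte list. The sums of the stellate cell list (438, 391 and 467 CPM) and the transforming growth factor beta list (729, 621 and 804) had it too. Those of the macrophage list (819, 440 and 601) and the contractile list (18.7, 23.2 and 45.7) did not. Krt19 differed by 0.41 (adjusted p = 0.588). The part of bile duct cells in the matrix rises was not tested.

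Of the 15 stellate cell markers, 7 rose and 2 fell, with a median of 0.66 on the log2 scale. Those that rose include Hgf by 1.11 (adjusted p = 0.00191), Pdgfra by 0.91 (adjusted p = 0.00802), Nes by 1.05 (adjusted p = 0.015) and Cygb by 0.94 (adjusted p = 0.0168). The sum of all 15 was 438, 391 and 467 CPM. None of the 7 contractile genes passed the test, and Acta2 was 1.06 (SE 0.51, adjusted p = 0.151) higher. No mesothelial marker passed, with sums of 40.4, 57.6 and 51.5 CPM in FAT-MASH and 26.6, 37.6 and 37.8 with therapy. Of the 9 hepatocyte markers tested, 6 fell, and their sum was 74900, 78200 and 69800 CPM against 108000, 99500 and 97500 in FAT-MASH.

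**Figure D4:**
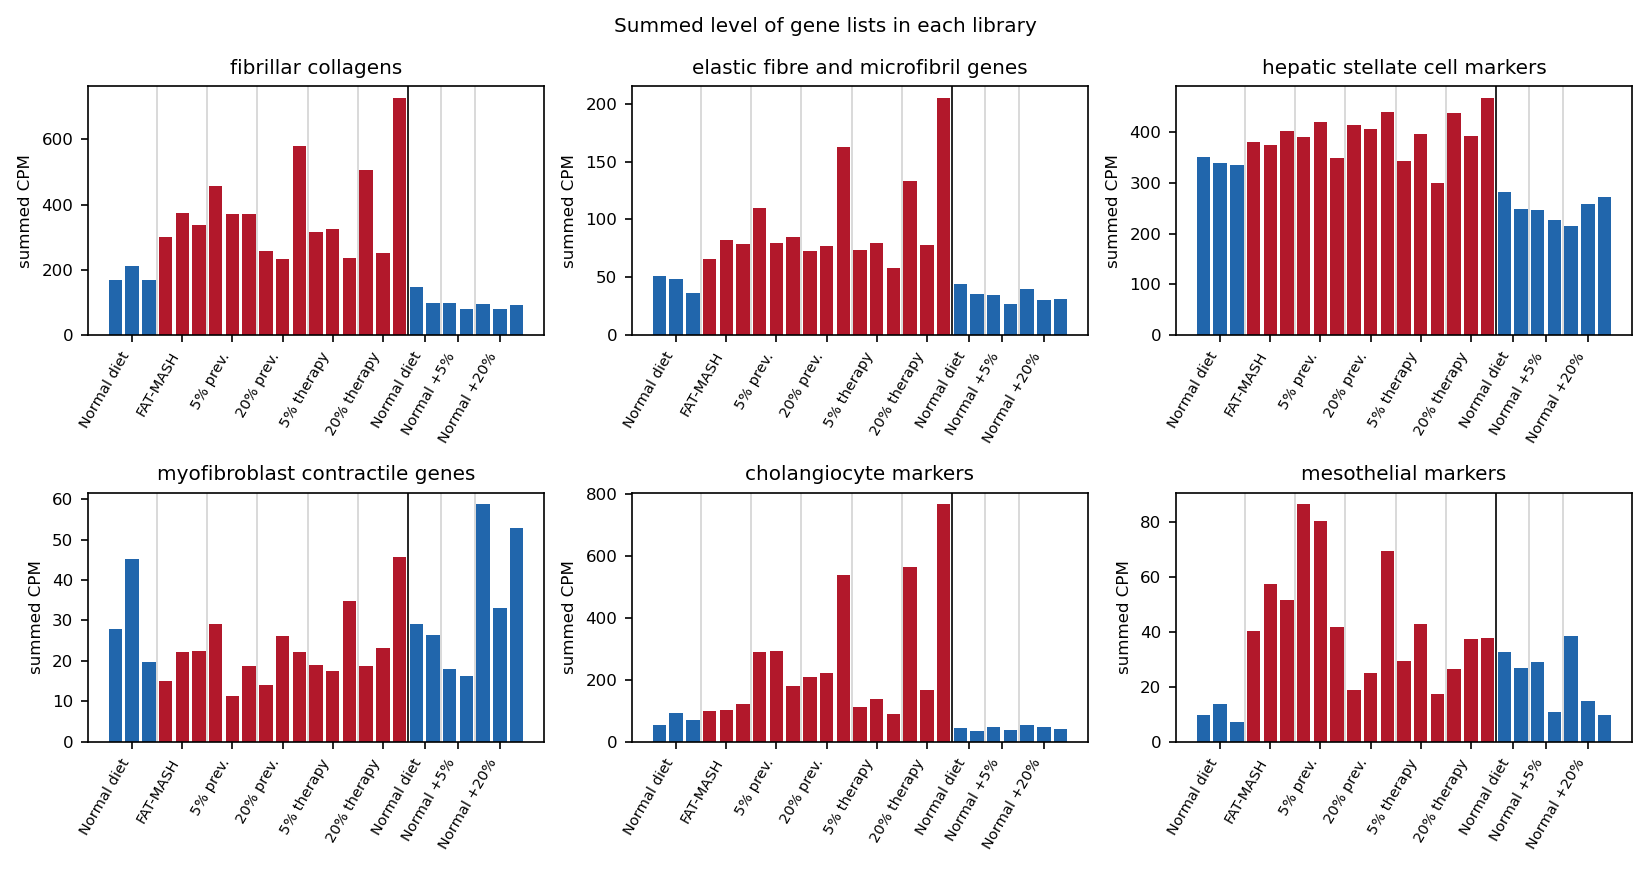
Bars give the summed CPM of 6 gene lists in each of the 25 libraries, in the order of the groups (red with the FAT-MASH regimen, blue on normal diet, the dark line between the batches). For fibrillar collagens, elastic fibre genes and cholangiocyte markers, replicate 3 is the highest library of 20% prevention and of 20% therapy, while no contractile gene rose with the regimen.

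The same dose given for all 12 weeks left most matrix genes without a call. Of 37, Vcan rose and Col5a3 fell with 20% prevention against FAT-MASH, where 15.1% of all genes changed (6.83% rose and 8.26% fell), and the median was 0.25 against 0.02 over all genes. Vcan went from 0.382, 0.42 and 0.507 to 1.21, 1.8 and 1.34 CPM, a rise of 1.73 (SE 0.55, adjusted p = 0.0374). Col5a3 was at 84.5, 69.5 and 71.9 CPM and fell by 0.55 (SE 0.15, adjusted p = 0.0167). All 3 libraries were below all of FAT-MASH, but the highest was close to the lowest FAT-MASH library, at 84.9 CPM. The call of Vcan was lost without any 1 of the 6 libraries, and that of Col5a3 when any of 4 was left out, namely replicates 1 and 2 of FAT-MASH and 2 and 3 of the mannose group. The Col5a3 call was also lost with scaling by library totals alone.

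Replicate 3 stood apart in this group, as the highest of the 3 for 33 of the 38 genes. Col1a1 was at 28.6, 26.9 and 108 CPM, Col3a1 at 87.3, 79.9 and 241 and Eln at 12.3, 10.1 and 49, so the first 2 libraries were near or below FAT-MASH and the last far above. Without replicate 3 the median turned from 0.25 to -0.32, and it was 0.49 without replicate 1, 0.41 without replicate 2 and 0.10 without FAT-MASH replicate 1. The cholangiocyte sum had the same shape, at 211, 224 and 541 CPM, and the mesothelial sum was 18.9, 25 and 69.4. Thbs1 was at 6.36, 10.6 and 12.2 CPM and 1.01 (SE 0.38, adjusted p = 0.0797) higher, and Col6a3 0.88 (SE 0.35, adjusted p = 0.0987). Col1a1 and Col3a1 differed from FAT-MASH by 0.53 (SE 0.52) and 0.32 (SE 0.45), and Acta2 by 0.24 (SE 0.50). With library totals alone as scaling, which put the median of all genes at 0.20, 6 matrix genes rose and none fell, against 1 and 1 here. Over all genes, 4015 of 19571 were then called, against 2952 in the main fit.

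Bmp1 was the gene of the processing list that changed with 20% prevention, a fall of 0.87 (SE 0.09, adjusted p = 9.76e-06). Of the growth factor list, 8 of 25 rose, among them Skil by 0.74 (adjusted p = 0.00156), Smad7 by 0.75 (adjusted p = 0.0032) and Tgfbr1 by 0.52 (adjusted p = 0.00801).

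Mannose at 5% gave no call in either schedule. For 5% prevention none of the 37 passed, against 2.27% of all genes, and 2 had an unadjusted p under 0.05. The median was 0.35, and all 3 libraries were above all of FAT-MASH in 13 genes, against 9.99% of all genes. Col1a1 was at 78.4, 50.3 and 53.9 CPM, 0.69 (SE 0.52, adjusted p = 0.589) above FAT-MASH, and its groups did not overlap. Col6a3, at 42.9, 34.1 and 30.6 CPM, was 0.64 (SE 0.35, adjusted p = 0.41) higher, Vcan 1.31 (SE 0.55, adjusted p = 0.251) and Col3a1 0.41 (SE 0.45). Replicate 1 of 5% prevention was the highest of its group for 31 of the 38 genes, and without it the median was 0.19. Fitted on these 2 groups alone, 1 matrix gene passed, and without a filter on low counts 9 did. Over all genes these settings called 386 and 1254, against 445 in the main fit. DESeq2 and voom called no matrix gene.

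For 5% therapy none of the 37 passed, against 0.0358% of all genes, and none had an unadjusted p under 0.05. DESeq2 called none. The median was -0.17, and 33 of the 37 were below 0. Col1a1 was at 38.4, 36.1 and 17.9 CPM, Col3a1 at 105, 121 and 56.1 and Col1a2 at 46.4, 53.4 and 28.9, and their differences from FAT-MASH were -0.30 (SE 0.53), -0.22 (SE 0.45) and -0.30 (SE 0.42). Acta2 differed by 0.04 (SE 0.51). Replicate 3 was the lowest of this group for 32 of the 38 genes. Without it the median was -0.02, without replicate 2 it was -0.31 and without FAT-MASH replicate 1 -0.30.

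Doses and schedules were also compared directly. Between 20% and 5% therapy, 14 genes were higher at 20% and 1 lower, against 17.7% of all genes that differed (8.33% higher and 9.33% lower), with a median of 0.88. Col1a1 (1.59 (SE 0.53, adjusted p = 0.0448)) and Col5a2 (1.12 (SE 0.36, adjusted p = 0.0363)) were among the 14, together with Bgn, Col16a1, Col6a3, Col8a1, Fbn1, Sparc, Thbs1, Vcan, Lox, Loxl2, Efemp2 and Emilin1. The steepest by p were Emilin1, 0.97 (SE 0.20, adjusted p = 0.00156) higher, Thbs1, 1.90 (SE 0.39, adjusted p = 0.00166), and Col6a3, 1.62 (SE 0.35, adjusted p = 0.00296). Col5a3 was the lower gene, by 0.66 (SE 0.15, adjusted p = 0.00384). Without 20% therapy replicate 3, 4 genes passed in place of 15, without 5% therapy replicate 3, 5 did, and without 20% therapy replicate 1, 8 did. The median was 0.55 without 20% therapy replicate 3. Col1a1 and Col5a2 each lost their call in 7 of 14 other settings, including DESeq2, with adjusted p up to 0.246 and 0.181.

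Between 20% and 5% prevention no matrix gene differed, against 0.445% of all genes, with a median of 0.00 and none at an unadjusted p under 0.05. Without 20% prevention replicate 3, 1 gene passed and the median was -0.47. Between 20% therapy and 20% prevention none passed, against 0.0818% of all genes, 5 had an unadjusted p under 0.05, and the median was 0.37. That median ran from 0.03 without 20% therapy replicate 3 to 0.85 without 20% prevention replicate 3, and was 0.16 and 0.17 without prevention replicate 1 or 2 and 0.58 without therapy replicate 2. Emilin1 was 0.55 (SE 0.19, adjusted p = 0.23) higher with therapy and Col8a1 1.26 (SE 0.54, adjusted p = 0.348). The 20% schedules are not shown to differ in any of these genes, nor shown to act alike. Between 5% therapy and 5% prevention none passed, against 0.194% of all genes, and 9 had an unadjusted p under 0.05. All 3 therapy libraries were below all prevention libraries in 12 genes, against 8.24% of all genes, and the median was -0.54, or -0.35 without 5% prevention replicate 1 and -0.34 without 5% therapy replicate 3. Dcn was 0.46 (SE 0.17, adjusted p = 0.272) lower with 5% therapy, and Aebp1 1.00 (SE 0.36, adjusted p = 0.269) lower. DESeq2 called none in these 3 comparisons and voom 1, between the 20% schedules. Without a filter on low counts, edgeR called 17 matrix genes between the 5% schedules and 7 between the 20% schedules. Over all genes it then called 862 and 702, against 38 and 16 in the main fit. The matrix median between the 5% schedules was then -0.53, hardly moved, while the edgeR adjusted p of Col1a1 went from 0.48 to 3.08e-11. Why p-values were so much smaller without the filter was not tested.

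Against normal diet, matrix genes were mostly higher in each mannose group on the regimen. With 5% prevention 26 of 37 genes rose, where 22.4% of all genes changed (12.3% rose and 10.1% fell), with a median of 1.40. With 20% prevention 30 rose and Col5a3 fell, where 33.3% changed (18.2% rose and 15.1% fell), with a median of 1.31, or 0.75 without 20% prevention replicate 3. With 5% therapy 11 rose, where 12.9% changed (7.04% rose and 5.89% fell), with a median of 0.96, while 5 rose without normal-diet replicate 3 or without 5% therapy replicate 2, and 7 without normal-diet replicate 1. With 20% therapy 31 rose and Col5a3 fell, where 36.1% changed (19.4% rose and 16.7% fell), with a median of 1.73. Col1a1 was higher than on normal diet by 2.56 (adjusted p = 0.00276) with 5% prevention, 2.40 (adjusted p = 0.0025) with 20% prevention, 1.57 (adjusted p = 0.0674) with 5% therapy and 3.16 (adjusted p = 0.000233) with 20% therapy. These comparisons share the 3 normal-diet libraries.

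On normal diet, no matrix gene passed the test with either dose of mannose. With 5% mannose none of the 38 passed, against 0% of all genes tested, and 4 had an unadjusted p under 0.05. The median was -0.46, and both libraries were below both controls in 15 genes, against 18.3% of all genes. Without normal-diet replicate 5, 1 gene passed and the median was -0.86. It was -0.13 without normal-diet replicate 4 and -0.92 without replicate 1 of the mannose group. Col1a1 was at 11 and 6.3 CPM without mannose and 6.06 and 4.45 with 5%, and Col3a1 at 49.6 and 21.9 and 28.3 and 15.6. With 20% mannose none passed, against 0.00542% of all genes, 3 had an unadjusted p under 0.05, and the median was -0.26. Its sign turned with 1 control: it was 0.21 without normal-diet replicate 4 and -0.56 without replicate 5, and -0.14 and -0.15 without mannose replicate 2 or 3. Col1a1 was at 10.9, 4.4 and 4.62 CPM, Col3a1 at 36.3, 22 and 27.5 and Col5a3 at 28, 36.2 and 44.3, where controls of the same batch had 46.9 and 60.3. Col5a3 was 0.57 (SE 0.19, adjusted p = 0.741) lower. Acta2 differed by -2.05 (SE 0.74) with 5% and 0.24 (SE 0.63) with 20%. DESeq2 and voom called no matrix gene in either comparison, and without a filter on low counts edgeR called 3 and 2. Over all genes edgeR then called 222 and 254, against 0 and 1 in the main fit. With 2 controls, whose own libraries differed by a median of 1.75 times in level, the number of libraries limits this comparison.

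The 20% effect was compared between the diets over all 25 libraries with a term for batch, as the change with 20% prevention on the regimen minus that with 20% on normal diet. Col12a1 was the matrix gene called, at 1.46 (SE 0.42, adjusted p = 0.0417), against 5.67% of all genes (2.26% higher and 3.41% lower). It was at 4.35, 4.26 and 4.34 CPM in FAT-MASH and 7.31, 5.47 and 7.62 with 20% prevention, and at 4.09 and 5.34 on normal diet and 2.86, 3.71 and 1.49 with 20% mannose. It was lost in 10 of 20 other settings, in 9 of them by leaving out 1 library. Those were each of the 3 FAT-MASH libraries, 20% prevention replicates 1 and 3, normal-diet replicates 4 and 5, and normal diet with 20% mannose replicates 1 and 3, and adjusted p ran up to 0.127. Col5a3 differed between the diets by 0.02 (SE 0.25).

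Low-level members were at 0 in several libraries. Vcan had 0 counts in both libraries of normal diet with 5% mannose, which allows up to 0.0727 and 0.0834 CPM, and in 2 of 3 with 20%. Mfap5 had 0 counts in all libraries of 20% prevention and of 20% therapy, which allows at most 0.0726 CPM in any of them, and was at 0.329, 0.105 and 0 CPM on normal diet in the first batch and 0.736 and 0.197 in the second. Mfap2, with 0.42, 0.899 and 0.789 CPM in FAT-MASH, was at 0, 0.263 and 1.75 with 20% prevention. These limits, of 3 counts, cover counting error only. If each fragment had been counted as a pair of reads, which was not tested, they would be 0.145 and 0.167 CPM for Vcan and 0.145 for Mfap5.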

How the data were processed

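Poly-A RNA of 25 livers was measured. STAR alignment to GRCm39 and counting with featureCounts 2.0.6 are named in the submitters' processing notes. The file headers give version 2.0.1 of the counter and release 31 of GENCODE, and a command with no option for strand or read pairs. The deposited values are whole-number counts per gene, not normalized by the authors. Among genes with 1 to 20 counts in a library, 75.6% to 82.1% of those counts were even numbers. The cause of this was not tested.

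Counts were fitted with edgeR 4.0.16 in R 4.3.3 (glmQLFit and glmQLFTest, TMM, filterByExpr, Benjamini-Hochberg over all genes tested, threshold 0.05) without covariates: the 18 first-batch libraries together (19571 genes), the 7 second-batch libraries together (18462), and all 25 libraries plus a term for batch to compare the diets (21373). Alternatives used DESeq2 1.42.0, limma 3.58.1 (voom), other scaling, filters and samples. Tests were tried on simulated counts with known changes. Every pair of libraries in a group differed by more than counting noise (chi-square over degrees of freedom of at least 21.2). P-values measure the spread between these libraries.

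All 38 genes are accounted for. Full values are given for those with the smallest p or the extremes of level, and up to 4 genes with the smallest p are named from each other list, with Col1a1, Col3a1 and Acta2 throughout. The genes and lists were chosen with earlier results of these data known.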

Additional observations from a re-analysis of the deposited data

Results flagged for a closer look

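Over the 5 normal-diet libraries without mannose, which span both batches, 2 of the 38 genes had 1 library far above the others. Vcan was at 0.699 CPM (scaled over all 25 libraries) in replicate 4 and at 0 to 0.201 in the other libraries. Mfap2 was at 0.437 CPM in replicate 3 and at 0 to 0.0502 in the others. Both are low-level genes with 0 counts in some of these libraries. Chance alone marks about 1 in 20 groups of normally distributed values from 1 population, which these values are not shown to be.

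The effect of 20% mannose on Col12a1, a fibril-associated collagen, differed between the diets by 1.46 on the log2 scale in a test of the difference itself, as given above with the libraries that decide it.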

How the results depend on the processing

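Single genes were followed under the other settings only where they passed the main test. Col1a1 and Col3a1 were followed in every comparison. Of these results, 2086 kept their direction and their side of the threshold, 248 lost a call and 26 gained one. Another 18, all of Col1a1 or Col3a1, changed sign without passing in either setting, and no followed gene that passed changed sign. Other genes without a call were not followed, so their gains and changes of sign are not in this count. DESeq2 called 4 matrix genes for 20% prevention against FAT-MASH, where edgeR called 2, and 3548 genes in all against 2952. With library totals alone there were 6 matrix genes for that comparison, 21 for 20% therapy against FAT-MASH and 23 for 20% against 5% therapy. Over all genes that scaling called 4015, 6520 and 5627, against 2952, 4195 and 3455 in the main fit. This scaling put the median of all genes at up to 0.39 (20% therapy against normal diet). Without a filter on low counts, matrix calls were 29 for the regimen, 9 and 13 for 5% and 20% prevention against FAT-MASH, 24 for 20% therapy, 26 for 20% against 5% therapy, 17 for 5% therapy against 5% prevention, 7 between the 20% schedules, 24 for 5% therapy against normal diet, 3 and 2 for 5% and 20% mannose on normal diet, and 7 for the difference between diets. Calls over all genes went up in each of these too. In the same order they were 3150, 1254, 3349, 4365, 3835, 862, 702, 3084, 222, 254 and 1807. The main fit had 2687, 445, 2952, 4195, 3455, 38, 16, 2530, 0, 1 and 1211. With that filter off, the matrix median for the regimen was 1.13, against 1.16 in the main fit, so the added calls came with smaller p-values. Limma voom with quality weights called 17 matrix genes for 20% therapy, 1 between the 20% schedules and 0 between diets. Over all genes it called 4898, 483 and 1047, against 4195, 16 and 1211 in the main fit. Fitting only the compared groups called 1 matrix gene for 5% prevention, and all 25 libraries with a batch term called 1 for 20% prevention. The causes were not tested.

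With the replicate number as a block, 14 genes were called for the regimen, 1 for 20% prevention and 7 for 20% therapy against FAT-MASH, 10 for 20% against 5% therapy, and 26, 29, 11 and 32 for 5% prevention, 20% prevention, 5% therapy and 20% therapy against normal diet. Nothing in the labels says that a number pairs mice. In no first-batch comparison were all 3 same-number correlations of deviations above 0.1, nor did every library correlate best with its own number (0 to 4 of 6 did). In the second batch the column names share numbers between the groups, with correlations of 0.063 for 5% mannose and of 0.053 and -0.017 for 20%. With those numbers as a block, an alternative chosen after seeing the data, 0 matrix genes were called for either dose on normal diet and 1, Col12a1, for the difference between diets.

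Leaving out 1 library at a time gave 8 to 18 calls for the regimen, 0 to 2 for 20% prevention, 4 to 19 for 20% therapy, 4 to 19 for 20% against 5% therapy, 0 to 1 for 20% against 5% prevention, 21 to 26, 22 to 32, 5 to 14 and 28 to 34 for the 4 mannose groups against normal diet in the order above, 0 to 1 for 5% mannose on normal diet and 0 to 1 for the difference between diets. For 5% prevention and 5% therapy against FAT-MASH, between the schedules at either dose, and for 20% mannose on normal diet it gave 0 throughout.

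Genes under about 1 CPM, such as Vcan, Mfap2 and Mfap5, rest on few counts.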

Other observations

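Emilin1 (chr5:31070746-31078621 in GRCm39) ends 153 bases before the start of Khk, which encodes ketohexokinase, the first enzyme of fructose breakdown, on the same strand. This pair was singled out after its values were seen. Emilin1 and Khk moved in opposite directions with 20% therapy against FAT-MASH: Emilin1 rose by 0.99 (SE 0.20, adjusted p = 0.000996 by edgeR) and Khk fell by 1.07 (SE 0.17, adjusted p = 0.000149). With 20% prevention Khk fell by 1.15 (SE 0.17, adjusted p = 0.000197), and Emilin1 was 0.44 (SE 0.19, adjusted p = 0.144) higher. With the regimen alone, Khk rose by 0.73 (SE 0.17, adjusted p = 0.00706) and Emilin1 differed by 0.32 (SE 0.20, adjusted p = 0.326).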
